A study of Mus musculus with 18 samples.

Results

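The genes of the constitutive proteasome were followed in mouse liver. They were taken by name: every gene whose symbol starts with Psma, Psmb, Psmc or Psmd and a digit, without Psmb8, Psmb9 and Psmb10, which encode the subunits of the immunoproteasome. The rule found 37 genes among the 19057 rows of the expression table, and it used no measured value. Of these, 33 encode subunits of the proteasome: 16 belong to the core particle (8 of the alpha ring, 8 of the beta ring) and 17 to the regulatory particle (6 of the ATPase ring, 3 of the non-ATPase base, 8 of the lid). Psmd5, Psmd9 and Psmd10 share the Psmd name but encode chaperones that help to assemble the base of the regulatory particle. Psmc3ip matched by its letters only. It encodes a partner of meiotic recombinases and is not a proteasome subunit.

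The proteasome is the main protease for proteins that a cell has marked with ubiquitin. Its core particle is a barrel of stacked rings, with the proteolytic sites on the inner face of the beta rings, and the regulatory particle at its end binds ubiquitin chains, removes them and unfolds the substrate with its ATPase ring. In mammalian cells the transcription factor NRF1 (gene Nfe2l1) raises the genes of both particles together when proteasome capacity falls short, after it has been drawn out of the endoplasmic reticulum, deglycosylated and cut by a protease. The liver, which makes and turns over large amounts of protein, holds abundant proteasomes.

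Bulk RNA sequencing was done on livers of 18 male ICR mice labelled as 10 weeks old, with 3 mice in each of 6 groups. Con mice received no STZ. STZ mice received streptozotocin, a toxin of pancreatic beta cells, as a model of type 1 diabetes. A10-FMT and Con-FMT mice received STZ and a transplant of small intestinal microbiota, pooled from donors given alginate oligosaccharide (AOS) or from control donors. The labels list 2 further groups: AOS mice (AOS at 10 mg/kg) and STZ+AOS mice (STZ with AOS at 10 mg/kg). A direct effect of STZ on the liver and the diabetes cannot be told apart in these groups, and the donor material was pooled, so each transplant is 1 pool. Values are RPKM, the reads of a gene per length of its transcript and per number of mapped reads, a level that is set per transcript length and so can be compared between genes. In whole liver, less RNA per cell and fewer cells of a type cannot be told apart.

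The summed RPKM of a library ran from 621121 to 806937, and 9955 to 10409 genes reached 1 RPKM. All 8 hepatocyte markers were high in each library, with sums of 36914 to 57554 RPKM. The 10 largest genes took 33.6% to 39.0% of the summed RPKM in Con, 29.8% to 34.5% in AOS, 19.0% to 28.5% in STZ and 17.1% to 18.9% in STZ+AOS, with 19.1% to 28.5% over the transplanted mice. RPKM values of the remaining genes move up when the largest genes take less, and the median gene was 0.21 higher on the log2 scale in STZ than in Con, with 0.21 for STZ+AOS against AOS, 0.16 for A10-FMT against Con and 0.19 for Con-FMT against Con. Changes of the proteasome genes are therefore given beside this median. The summed stellate cell markers (4 of 4 detected) also moved with STZ, from 66.3 to 77.7 RPKM in Con to 105.0 to 123.6 in STZ and 128.6 to 149.0 in STZ+AOS, and the 6 Kupffer cell markers from 57.8 to 86.1 in Con to 86.5 to 194.1 in STZ. The summed pancreatic acinar markers (1 of 8 at 1 RPKM in 3 libraries, Prss1 at 0) ran from 32.2 to 41.2 RPKM in Con, from 3.58 to 8.86 in STZ and from 3.45 to 80.0 in STZ+AOS. The summed erythroid markers ran from 3435 to 9834 RPKM in Con-FMT, above all Con mice (1535 to 2958) and all STZ mice (593 to 2455). They ran from 1779 to 3453 RPKM in A10-FMT and from 2959 to 3837 in AOS. The part of these cells in the results below was not tested.

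Of the 37 genes, 35 were at 1 RPKM or more in all 18 libraries. Psmb11, the beta subunit of thymic cortical epithelium, was at most 0.05 RPKM (above 0 in 5 libraries) and was not tested. Psma8, the alpha subunit of germ cells, ran from 0.54 to 1.24 RPKM and reached 1 RPKM only in the 3 STZ mice and 1 Con-FMT mouse, so it entered the test through the group where it was high. It is counted among the core subunits tested and was called in no comparison. This left 36 tested genes. On the RPKM scale the core particle stood above the regulatory particle. Over the 14 core subunits other than Psma8 and Psmb11, the mean level over 18 libraries had a median of 103.8 RPKM, from 49.3 (Psma5) to 179.6 (Psmb3). Over the 17 regulatory subunits the median was 51.9 RPKM, from 30.4 (Psmd14, the lid's deubiquitinase) to 85.6 (Psmd4, a ubiquitin receptor). Psmb3, a beta subunit without proteolytic activity, had the highest mean and ran from 158.0 to 180.8 RPKM in Con and from 146.5 to 198.0 in STZ. The chaperones lay lower, at a mean of 16.5 (Psmd5), 13.1 (Psmd9) and 5.84 RPKM (Psmd10). Mice of 1 group resembled each other closely: the coefficient of variation within groups averaged 2.90% to 18.2% per gene, with a median of 6.5% over the 35 genes. Neighbours in the order of levels often lay closer than their ranges, as did Psmc1 and Psmb5 (means of 84.1 RPKM each).

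**Figure D1:**
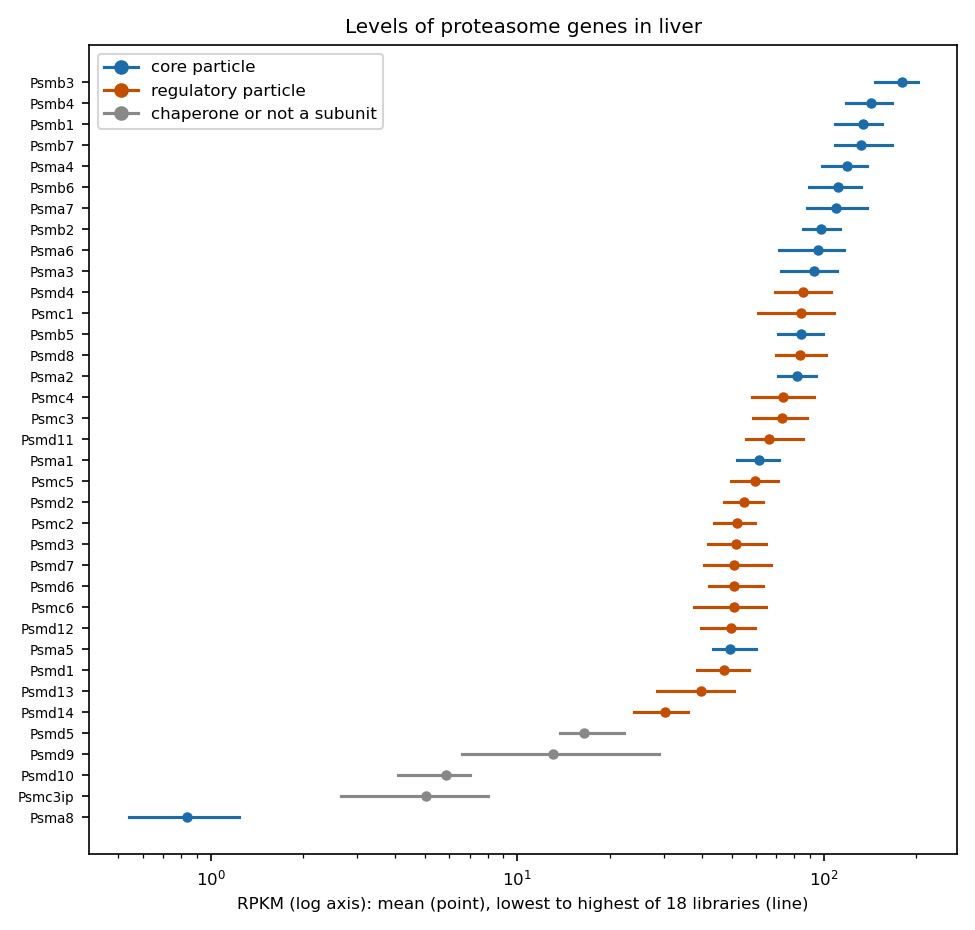
Levels of 36 proteasome genes (Psmb11, near 0, is left out): the point is the mean RPKM and the line spans the lowest to the highest of 18 libraries, on a log axis, coloured by particle. The core subunits fill the top of the order from Psmb3 (179.6 RPKM), the regulatory subunits lie between 30.4 and 85.6 RPKM, and Psmd9 has the widest range of the chaperones (6.61 to 28.9 RPKM).

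Since subunits of 1 particle have to be made in matching amounts, their promoters are of interest beside the levels. RefSeq promoters (GRCm38.p6, 250 bases before to 50 after the start site) were at hand for 30 of the 37 genes, and 4 motifs were searched on both strands. The antioxidant response element core TGACNNNGC, which NRF1 and NRF2 bind, stood in 5 of 30 (16.7%), namely Psmb5, Psmb6, Psmc6, Psmd9 and Psmd12, close to its share of 14% over 27025 genes with a promoter. CCAAT stood in 13 of 30 (43.3%, against 41.1% of all genes). The palindrome of nuclear respiratory factor (GCGC, any 2 bases, GCGC), a factor unrelated to Nfe2l1, stood in 6 of 30 (20.0%, against 7.0%). The ETS core CCGGAAG stood in 11 of 30 (36.7%, against 9.93%), and it was split between the particles. It was found for 9 of 14 regulatory genes and for 1 of 12 core genes, Psma6. A gene counts if any of its promoters holds the motif, and the 30 genes have 32 promoters. In Psma6 the ETS matches lay only in the promoter from position 55398575 of chr12, and none lay in that from 55383972, at the start of the gene. The motifs were not seen to overlap in the promoters shown. A match is a description of the letters and not of a bound site.

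The promoters below belong to genes that rose after STZ. Psmd9, Psmc6 and Psmd12 are the called genes with TGACNNNGC. Psmc1 and Psmd13, the called subunits with the largest changes, were added after the matches were seen and hold CCGGAAG but not TGACNNNGC. Capitals mark matches of TGACNNNGC (or its reverse complement) and of CCGGAAG (or CTTCCGG), and each promoter lies on the + strand.
Psmd9 (chr5:123227940-123228239): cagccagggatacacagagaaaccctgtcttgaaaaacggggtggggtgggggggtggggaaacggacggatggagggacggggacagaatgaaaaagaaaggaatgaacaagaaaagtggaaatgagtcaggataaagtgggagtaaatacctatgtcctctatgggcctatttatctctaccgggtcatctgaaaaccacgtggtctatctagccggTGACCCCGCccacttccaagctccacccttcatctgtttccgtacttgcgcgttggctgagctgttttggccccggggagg
Psmc6 (chr14:45329574-45329873): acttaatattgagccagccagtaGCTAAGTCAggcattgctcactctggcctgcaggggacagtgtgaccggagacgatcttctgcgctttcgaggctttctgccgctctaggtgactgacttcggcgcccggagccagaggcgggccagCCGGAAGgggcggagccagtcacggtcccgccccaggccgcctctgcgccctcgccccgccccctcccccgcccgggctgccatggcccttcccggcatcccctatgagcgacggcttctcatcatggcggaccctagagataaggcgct
Psmd12 (chr11:107479278-107479577): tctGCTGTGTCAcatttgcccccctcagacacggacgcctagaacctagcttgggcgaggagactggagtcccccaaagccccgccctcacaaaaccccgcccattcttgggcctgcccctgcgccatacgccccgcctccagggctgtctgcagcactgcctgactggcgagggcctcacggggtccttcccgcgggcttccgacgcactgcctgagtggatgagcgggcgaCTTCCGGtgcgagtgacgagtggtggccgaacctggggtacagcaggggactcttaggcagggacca
Psmc1 (chr12:100109952-100110251): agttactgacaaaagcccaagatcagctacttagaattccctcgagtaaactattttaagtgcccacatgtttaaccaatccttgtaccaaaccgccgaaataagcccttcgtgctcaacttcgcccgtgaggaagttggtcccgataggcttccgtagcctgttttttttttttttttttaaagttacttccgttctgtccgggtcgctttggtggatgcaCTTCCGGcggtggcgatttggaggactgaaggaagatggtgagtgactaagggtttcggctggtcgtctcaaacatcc
Psmd13 (chr7:140882144-140882443): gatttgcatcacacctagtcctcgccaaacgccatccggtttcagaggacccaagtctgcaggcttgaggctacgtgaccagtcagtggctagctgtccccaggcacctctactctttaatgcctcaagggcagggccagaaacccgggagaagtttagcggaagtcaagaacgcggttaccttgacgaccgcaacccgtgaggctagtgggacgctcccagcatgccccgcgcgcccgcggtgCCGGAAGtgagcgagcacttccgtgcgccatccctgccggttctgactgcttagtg
Counted from the start site, the first base of the TGACNNNGC match lay at -31 in Psmd9, but at -227 in Psmc6 and -247 in Psmd12. In Psmb6 and Psmb5, which were not called in STZ against Con, it lay at -9 and -47. That of the CCGGAAG match lay at -28 in Psmc1, -17 in Psmd12, -6 in Psmd13 and -100 in Psmc6.

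The first comparison asks how STZ left the proteasome genes of the liver. In STZ against Con, 11 of 36 tested genes rose and 0 fell (limma, adjusted p under 0.05), a share of 30.6% beside 38.5% called among all 10602 genes (33% higher, 5.52% lower), and 13 had an unadjusted p under 0.05, beside 49% of all genes. The share of called genes was not above the background. The median change of the 36 genes was 0.20 on the log2 scale, beside 0.21 for all genes. The change was uneven between the particles. Of the regulatory particle, 8 of 17 subunits rose, 3 of the ATPase ring (Psmc1, Psmc3, Psmc6), 1 of the non-ATPase base (Psmd1) and 4 of the lid (Psmd3, Psmd7, Psmd12, Psmd13). Of the core particle 2 of 15 rose, Psma6 and Psmb1. The remaining called gene was the chaperone Psmd9, which changed most of all.

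Psmd9, whose product holds ATPase subunits until the base is assembled, was at 6.74, 7.16 and 6.61 RPKM in the Con mice and at 18.2, 20.8 and 12.8 RPKM in the STZ mice. All STZ mice lay above all Con mice, and the lowest STZ mouse was the one numbered 3. The means were 6.84 ± 0.29 and 17.3 ± 4.08 RPKM (SD, n = 3), a fitted log2 change of 1.20 (SE 0.24, limma adjusted p = 0.0037). That change ranked at the 96.8th percentile of all genes, and it stayed at 0.95 with an adjusted p of 0.0077 after median-ratio scaling, which divides each library by the median ratio of its genes to their mean. Relative to Psmd8, a lid subunit of the same library, Psmd9 was at 0.089 ± 0.007 in Con and 0.191 ± 0.028 in STZ. On GRCm38 the gene lies on the + strand of chr5:123169413-123250131 by GENCODE, a span that includes the whole of Hpd on the opposite strand. Hpd ends at 123182727, before the RefSeq promoter shown above, so by that shorter transcript it lies outside Psmd9. No exon of Hpd overlaps one of Psmd9, though one of a noncoding RNA on the opposite strand does. Hpd, a very abundant enzyme of tyrosine breakdown, was itself at 910 to 1204 RPKM in Con and 2286 to 3328 in STZ. The files do not show whether unspliced or misassigned reads of Hpd reached Psmd9, and this was not tested.

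Psmc1, an ATPase of the base, was at 60.9, 65.6 and 67.5 RPKM in Con and 94.0, 107.7 and 82.9 in STZ. Its log2 change was 0.54 (SE 0.11, adjusted p = 0.0042), and 0.27 after median-ratio scaling (adjusted p = 0.027). Psmd13, a structural lid subunit, was at 31.8, 28.8 and 31.6 RPKM in Con and 44.01, 50.4 and 39.3 in STZ, a change of 0.52 (SE 0.10, adjusted p = 0.0032). In both genes the groups did not overlap, with STZ mouse 2 the highest. Psmd3, the next lid subunit, was at 41.8, 42.2 and 43.1 RPKM in Con and 64.6, 60.4 and 51.1 in STZ, a change of 0.45 (SE 0.11, adjusted p = 0.0077). After median-ratio scaling Psmd13 and Psmd3 kept changes of 0.25 and 0.19 but missed the threshold (adjusted p = 0.076 and 0.086). The other called genes had changes from 0.28 (Psmd12, a lid subunit) to 0.42 (Psma6, an alpha ring subunit). Exons of Psmd13 overlap those of Sirt3 on the opposite strand, as those of Psmc3 overlap Slc39a13 and those of Psmd1 overlap Htr2b and Gm21972. The counting is not stated to use strand, so reads of such pairs cannot be told apart.

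The 3 subunits that carry the proteolytic sites did not pass the test. Psmb5, with the chymotrypsin-like site, was at 70.8, 82.1 and 74.1 RPKM in Con and 82.7, 86.2 and 80.9 in STZ, a change of 0.14 (95% interval -0.10 to 0.37). Psmb6, with the caspase-like site, was at 91.3, 102.6 and 109.6 RPKM in Con and 130.9, 113.7 and 91.2 in STZ, a change of 0.13 (-0.17 to 0.44). Psmb7, with the trypsin-like site, was at 108.3, 115.3 and 116.1 RPKM in Con and 139.7, 132.6 and 120.0 in STZ, a change of 0.20 (-0.01 to 0.42). Only for Psmb7 did the groups not overlap, and for all 3 genes the change was below the median of all genes and turned negative after median-ratio scaling (-0.13, -0.14 and -0.06), median centring and quantile normalization.

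Without overlap between groups, 21 genes were higher in STZ and 1 lower (Psmc3ip), beside 40.8% and 6.98% of all genes. The 21 include Psma8, which passed the filter through the STZ mice, so its place among them is no support. It is also counted in the medians of the core particle. After median-ratio scaling, under which the median gene moved by -0.01, the 36 genes had a median change of -0.06. On that scale 2 rose (Psmd9, Psmc1) and 3 fell (Psma1, Psma4, Psmc3ip), with 14% of all genes called higher and 13.1% lower. The 2 fallen subunits belong to the alpha ring. Psma1 was at 57.6, 58.3 and 59.7 RPKM in Con and 61.1, 54.1 and 58.1 in STZ, which is a change of -0.02 as deposited and -0.29 on that scale (adjusted p = 0.031). Psma4 was at 104.4, 120.8 and 114.7 RPKM in Con and 119.0, 111.7 and 98.7 in STZ, with -0.05 as deposited and -0.32 on that scale (adjusted p = 0.020). The direction of the core particle as a whole thus depends on the scale: its median change was 0.16 as deposited and -0.10 after scaling, with 0.24 and -0.02 for the regulatory particle. Without STZ mouse 2 or without Con mouse 1 the number of called genes was 6, and Psmd9, Psmc1, Psmd13, Psmd3, Psma6 and Psmd1 were called whichever mouse was left out. Psmb1, Psmc3 and Psmd12 lost their call in 5 of 6 such fits, and Psmd7 and Psmc6 in 2. The share of all genes called in these fits is not given, so the count of 6 is not read against a background.

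**Figure D2:**
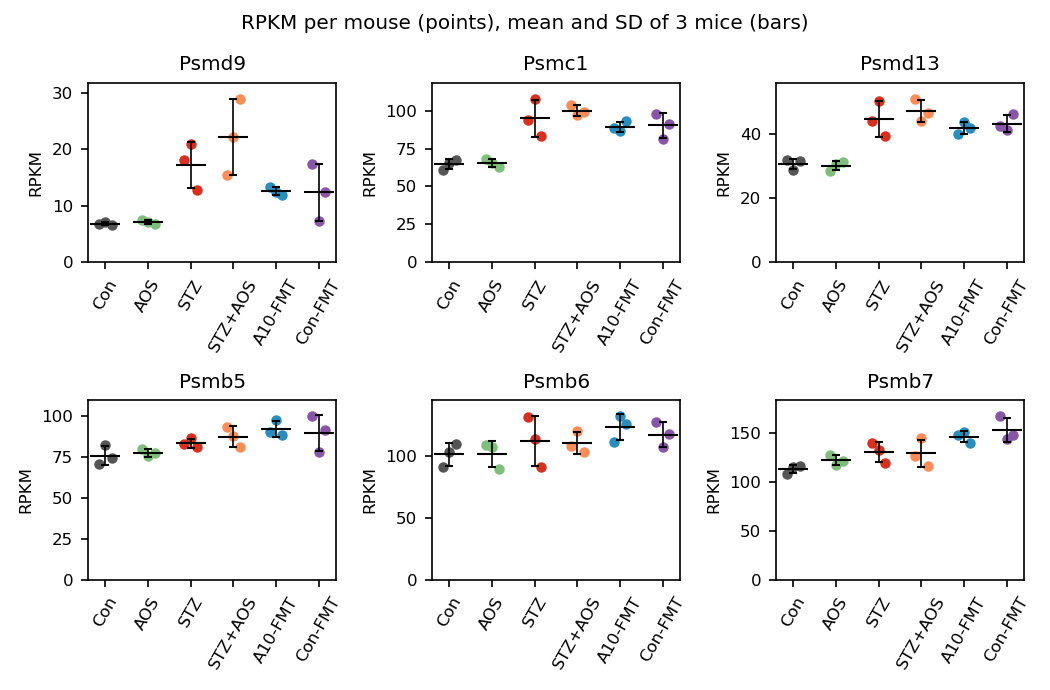
RPKM of Psmd9, Psmc1, Psmd13 and the catalytic subunits Psmb5, Psmb6 and Psmb7 by group: points are mice, the bar is the mean and the whiskers the SD of 3 mice, and each axis starts at 0. Psmd9 stands at 6.61 to 7.46 RPKM in Con and AOS and at 12.8 to 28.9 in STZ and STZ+AOS, while Psmb5 overlaps between Con (70.8 to 82.1) and STZ (80.9 to 86.2).

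The effect of STZ can be read in other animals. STZ+AOS against AOS shares no mouse with STZ against Con, though both contrasts were fitted with pooled estimates of spread. Here 17 of 36 genes rose and 0 fell (limma), 47.2% beside 37.9% called among all 10822 genes (31.8% higher, 6.11% lower), and 20 had an unadjusted p under 0.05, beside 48.1%. Without overlap 22 genes were higher, beside 40.5% of all genes. The regulatory particle held nearly all of them: 15 of 17 subunits rose, all 6 ATPases, all 3 non-ATPase base subunits and 6 of 8 lid subunits, while Psmd11 (0.25, adjusted p = 0.083) and Psmd14 (-0.03, adjusted p = 0.87) did not pass. Of the core particle, 1 of 15 rose, Psma6. The median change was 0.38 for the regulatory particle and 0.12 for the core particle, beside 0.21 for all genes.

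Psmd9 was at 7.46, 7.15 and 6.83 RPKM in the AOS mice and 15.5, 22.1 and 28.9 in the STZ+AOS mice, a log2 change of 1.47 (SE 0.24, limma adjusted p = 0.00063). Psmd13 was at 28.6, 30.6 and 31.2 RPKM in AOS and 51.0, 44.1 and 46.5 in STZ+AOS, a change of 0.63 (SE 0.10, adjusted p = 0.00039). Psmc1 was at 68.4, 65.6 and 62.9 RPKM in AOS and 103.9, 96.8 and 99.3 in STZ+AOS, a change of 0.60 (SE 0.10, adjusted p = 0.00068). These genes led both comparisons, their groups never overlapped, and AOS mice lay at the level of Con mice. Psmd4, a ubiquitin receptor of the base, was at 72.5, 72.8 and 69.3 RPKM in AOS and 99.2, 95.3 and 105.6 in STZ+AOS (0.48, adjusted p = 0.0017), against 73.5, 75.8 and 77.9 in Con and 89.1, 89.9 and 83.3 in STZ (0.20, adjusted p = 0.14). The difference between its 2 changes was 0.27 (95% interval -0.01 to 0.56, adjusted p = 0.86), so it was not shown to differ. The catalytic subunits again did not pass, with changes of 0.17 (Psmb5), 0.12 (Psmb6) and 0.07 (Psmb7).

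After median-ratio scaling 7 genes were called higher in STZ+AOS against AOS, beside 12.2% of all genes, 6 of them regulatory subunits, with a median of 0.14 for the regulatory and -0.12 for the core particle. With any 1 mouse left out, 15 to 17 genes were called, and 15 genes were called in all 6 such fits. These counts stand without the share of all genes and are not read against a background. Of the 11 genes called in STZ against Con, 10 were also called here (90.9% of the 11, 58.8% of the 17). The exception was Psmb1, a beta subunit without proteolytic activity (0.14, limma adjusted p = 0.26). The share of all genes called in both comparisons was not computed, so this count is not read as particular to the proteasome genes. Across the 36 genes the changes of the comparisons followed each other with a Pearson r of 0.80 and a Spearman rho of 0.74, and r was 0.84 without Psmd9 and Psmc3ip, the genes farthest out. Over all 10602 genes r was 0.88. These are correlations across genes, which share libraries and are not independent replicates. The difference between the 2 STZ effects was tested as an interaction, and 0 of 36 genes passed it (limma; 1 at an unadjusted p under 0.05, Psmc3ip), as did 0.00% of all genes (5.40% unadjusted).

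**Figure D3:**
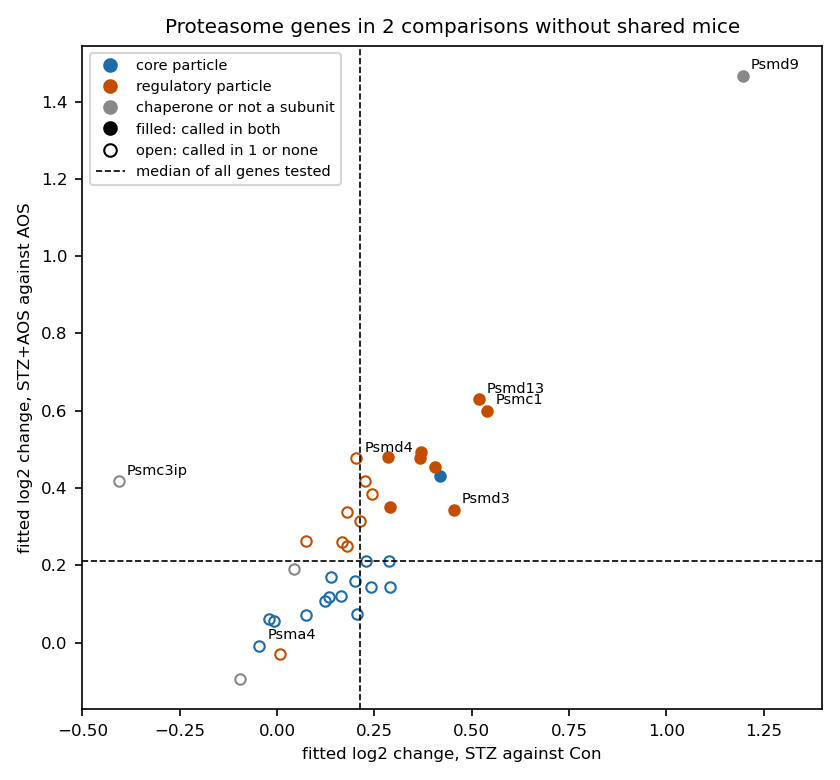
Fitted log2 change of each tested proteasome gene in STZ against Con (horizontal) and in STZ+AOS against AOS (vertical), coloured by particle, with dashed lines at the medians of all genes tested (0.21 on each axis). The 10 genes called in both are filled. Regulatory subunits lie mostly above the horizontal dashed line (16 of 17) and core subunits below it (14 of 15), with Psmd9 far out at 1.20 and 1.47.

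**Figure D4:**
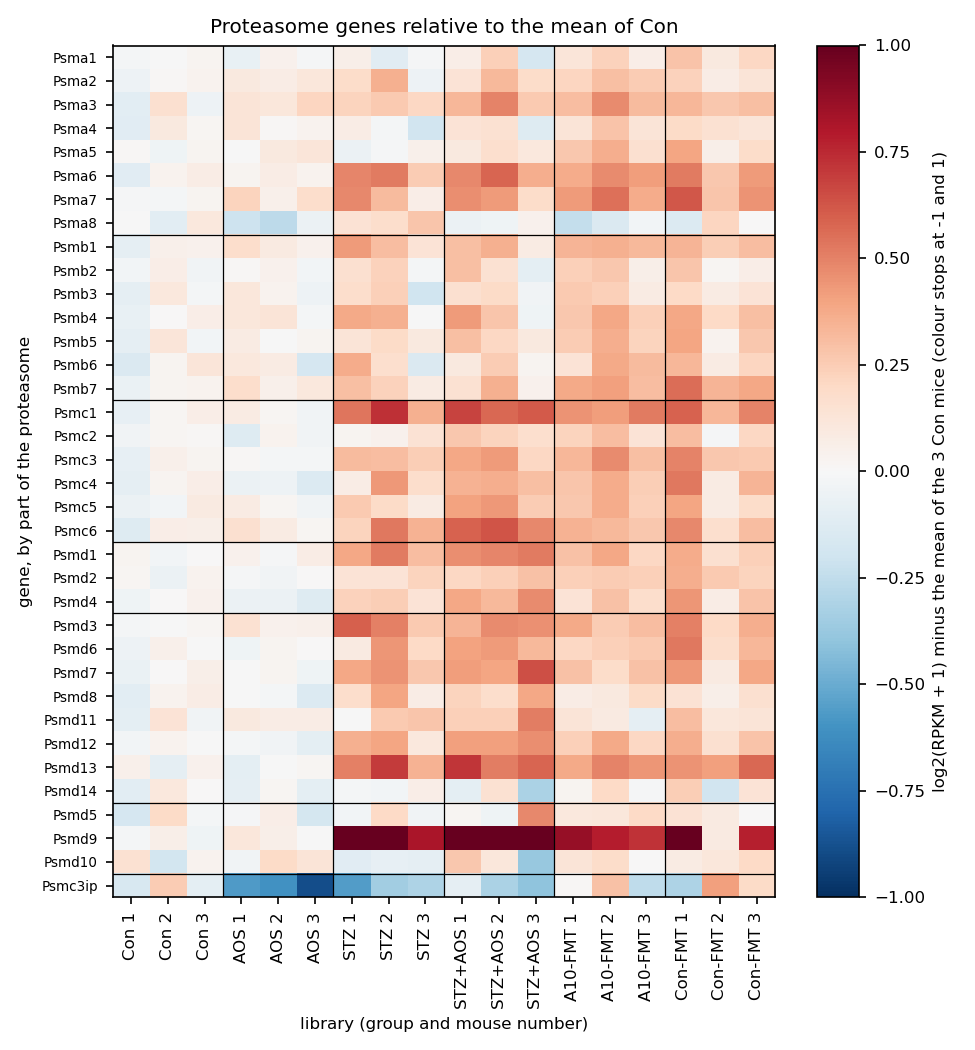
Proteasome genes in each of the 18 libraries, as log2(RPKM + 1) minus the mean of the 3 Con mice, with genes ordered by part of the proteasome and colours that stop at -1 and 1. Red deepens from the core particle to the ATPase ring, base and lid in STZ and STZ+AOS, and Psmd9 is the darkest row, with a lighter mouse 2 in Con-FMT (7.33 RPKM).

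The split between the particles was also read within each library, where any scaling of the library cancels. For each mouse the median log2 difference from the Con mean was taken over the 17 regulatory and the 15 tested core subunits, and one was subtracted from the other. This measure was chosen after the values had been seen, and it is a description with no test. It was 0.010, -0.004 and 0.006 in Con, by construction near 0, and -0.108, -0.035 and -0.066 in AOS. It was 0.048, 0.165 and 0.175 in STZ and 0.228, 0.156 and 0.413 in STZ+AOS. All STZ and STZ+AOS mice lay above all Con and AOS mice, and STZ+AOS mouse 3 stood highest. It was 0.003, -0.048 and 0.006 in A10-FMT and 0.097, 0.002 and 0.068 in Con-FMT. The A10-FMT mice lay below all STZ mice, whereas the Con-FMT mice overlapped both STZ and Con.

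**Figure D5:**
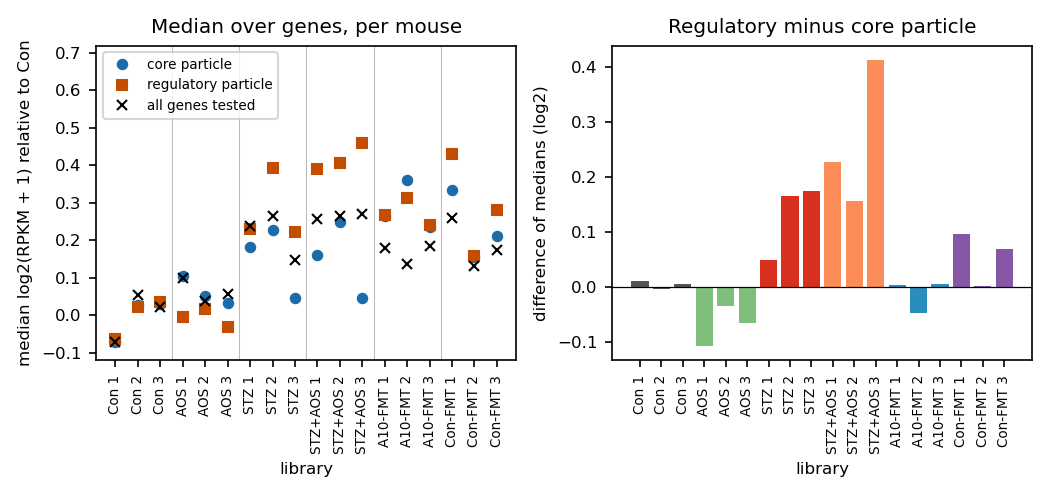
Left, median over genes of log2(RPKM + 1) relative to Con in each mouse, for the core particle, the regulatory particle and all genes tested. Right, the regulatory minus the core median in the same mice: it lies from 0.048 to 0.413 in STZ and STZ+AOS, from -0.108 to 0.010 in Con and AOS, and from -0.048 to 0.006 in A10-FMT.

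The transplants were compared with STZ alone, with Con and with each other; these comparisons share the STZ or the Con mice, so their values are given side by side. In A10-FMT against STZ, 0 of 36 genes passed (limma), beside 0.226% of all genes, and 4 had an unadjusted p under 0.05, beside 20.9% of all genes. The share of all genes called hung on single mice, with 12.7% without STZ mouse 3 and 0% without STZ mouse 2, A10-FMT mouse 2 or A10-FMT mouse 3, while 0 members passed in each of these fits. In Con-FMT against STZ, 0 of 36 passed, beside 0.00943%, and 5 had an unadjusted p under 0.05, beside 20.1%. Over the 36 genes the median change was 0.07 in A10-FMT and 0.05 in Con-FMT, beside -0.05 and -0.03 for all genes. For A10-FMT the core particle had a median of 0.14, with 14 of 15 genes above the median of all genes, and the regulatory particle -0.01, with 10 of 17. For Con-FMT these medians were 0.07 and 0.0047, with the same counts, 14 of 15 and 10 of 17, above the median of all genes.

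Psmd9 was at 13.4, 12.5 and 11.9 RPKM in A10-FMT and 17.4, 7.33 and 12.5 in Con-FMT. Con-FMT mouse 2 lay near Con and mouse 1 within the STZ range. Against STZ the changes of Psmd9 were -0.40 (95% interval -0.93 to 0.12) and -0.50 (-1.02 to 0.03), with adjusted p of 0.36 and 0.27. Psmc1 was at 88.6, 86.6 and 93.0 RPKM in A10-FMT and 97.9, 81.6 and 91.3 in Con-FMT, inside the STZ range except for Con-FMT mouse 2. Psma8 was at 0.57, 0.67 and 0.82 RPKM in A10-FMT and 1.05, 1.09 and 1.24 in STZ. It passed the filter through the STZ mice, so its lower level against STZ is a description without a test, though it is among the 4 genes counted above. In Con-FMT against STZ the smallest p was that of Psmc3ip (0.51, adjusted p = 0.18).

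Between the transplants, A10-FMT against Con-FMT, 0 of 36 genes passed and 0 had an unadjusted p under 0.05 (limma; 0.00% and 2.86% of all genes). The member median was 0.00, beside -0.02 for all genes.

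Against Con, both transplanted groups stood higher. In A10-FMT against Con 10 of 36 genes rose and 0 fell, 27.8% beside 18.4% called among all genes (15.9% higher), and 22 had an unadjusted p under 0.05, beside 35.2%. In Con-FMT against Con 9 rose and 0 fell, 25% beside 19.4% (17.5% higher), and 21 had an unadjusted p under 0.05, beside 36.6%. In A10-FMT 28 genes lay without overlap above Con, beside 41.7% of all genes, and in Con-FMT 23, beside 40.7%. The member medians were 0.27 and 0.26, beside 0.16 and 0.19 for all genes. After median-ratio scaling they were 0.07 and 0.04, beside -0.003 and 0.004. The called genes were spread over both particles, 5 of 15 core and 4 of 17 regulatory subunits in A10-FMT, and 4 of 15 and 5 of 17 in Con-FMT. Psmd13 was at 40.2, 43.7 and 41.9 RPKM in A10-FMT (0.44, SE 0.10, adjusted p = 0.016) and at 42.3, 41.1 and 46.2 in Con-FMT (0.48, SE 0.10, adjusted p = 0.012). Psmc1 had changes of 0.46 (SE 0.11, adjusted p = 0.019) and 0.47 (SE 0.11, adjusted p = 0.018). In both groups all mice lay above all Con mice for these genes.

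Psma6 was at 71.5, 79.2 and 81.5 RPKM in Con, at 100.1, 107.5 and 103.8 in A10-FMT (0.42, adjusted p = 0.022) and at 111.0, 93.2 and 104.2 in Con-FMT (0.40, adjusted p = 0.026). Psmb7 was at 147.7, 151.1 and 140.3 RPKM in A10-FMT (0.37, adjusted p = 0.028) and at 167.2, 143.7 and 148.4 in Con-FMT (0.43, adjusted p = 0.016), above all Con and all STZ mice in both groups. Exons of Psmb7 overlap those of Nek6 on the opposite strand. After median-ratio scaling 0 of 36 genes passed in either comparison (6.27% and 4.9% of all genes were called higher), and the counts moved with single mice: 0 to 5 genes in A10-FMT against Con, where every mouse left out lowered the count, and 1 to 14 in Con-FMT against Con. In the latter the count was 1 without Con-FMT mouse 1 or without Con mouse 1, 2 without Con-FMT mouse 3 or Con mouse 3, and 14 without Con-FMT mouse 2. In A10-FMT against Con 0 of the 10 called genes kept the call in all 6 such fits, and Psmb7 was called in 0. In Con-FMT against Con 1 of the 9 kept it (Psmd13), and Psmb7 was called in 3 of 6. With the mouse number as a block 6 and 4 genes were called. The share of all genes called is not given for the fits with a mouse left out or with the block. A loss of member calls there cannot be told from a general loss of calls.

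AOS without STZ was compared with Con, and STZ+AOS with STZ. In AOS against Con 0 of 36 genes passed (limma; 0.00924% of all genes) and 1 had an unadjusted p under 0.05, beside 7.22% of all genes. In STZ+AOS against STZ 0 of 36 passed and 0 had an unadjusted p under 0.05 (0.00% and 6.07% of all genes). The gene with the smallest p in AOS against Con was Psmc3ip, which is no proteasome subunit. It was at 5.08, 7.08 and 5.34 RPKM in Con, 3.57, 3.45 and 2.67 in AOS, 3.59, 4.33 and 4.46 in STZ and 5.37, 4.45 and 4.12 in STZ+AOS. The change with AOS was -0.69 (SE 0.18, adjusted p = 0.51). Psma8 was at 0.78, 0.80 and 0.91 RPKM in STZ+AOS, below the STZ mice through which it passed the filter, and no test is drawn from this.

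Of the 3 immunoproteasome subunits, which replace the catalytic beta subunits after interferon, 1 fell in STZ against Con and 0 rose, beside 5.52% of all genes called lower. Psmb9, which takes the place of Psmb6, was at 26.5, 18.5 and 22.0 RPKM in Con and 13.9, 9.80 and 15.6 in STZ, and it fell by 0.74 on the log2 scale (SE 0.18, limma adjusted p = 0.010). It fell by 0.91 in STZ+AOS against AOS (adjusted p = 0.0031) and rose by 1.07 in A10-FMT against STZ (32.8, 27.4 and 24.9 RPKM, adjusted p = 0.0475). This last call was lost without STZ mouse 2 (0.89, adjusted p = 0.15) and without any 1 of the A10-FMT mice (0.97 to 1.16, adjusted p of 0.093 to 0.15). In Con-FMT it was at 25.0, 28.3 and 20.8 RPKM (0.88 against STZ, adjusted p = 0.072, and 1.01 with an adjusted p of 0.0083 without STZ mouse 3). All STZ mice lay below all Con and all transplanted mice. Relative to Psmb6 of the same library, Psmb9 was at 0.224 ± 0.058 in Con, 0.121 ± 0.045 in STZ, 0.132 ± 0.023 in STZ+AOS, 0.234 ± 0.054 in A10-FMT and 0.213 ± 0.046 in Con-FMT (SD, n = 3). Psmb9 shares exon positions with Tap1 on the opposite strand.

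Psmb8, which takes the place of Psmb5, was at 26.7, 23.1 and 26.4 RPKM in Con and 27.3, 17.3 and 22.6 in STZ (-0.20, adjusted p = 0.35). It was at 28.2, 36.3 and 32.6 RPKM in AOS and 23.7, 28.3 and 16.4 in STZ+AOS, where it fell by 0.51 (adjusted p = 0.043) although the groups overlapped. The call was lost without STZ+AOS mouse 1 or 3 (-0.55 and -0.30) and without AOS mouse 2 or 3 (-0.43 and -0.50). Psmb10, which takes the place of Psmb7, was at 22.2, 16.4 and 20.3 RPKM in Con and 26.0, 14.3 and 17.8 in STZ (-0.05, adjusted p = 0.84). Its sign changed without STZ mouse 2 or without Con mouse 1 (0.14 and 0.04).

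Other genes of the pathway were read from fixed lists, and their calls in STZ against Con are compared with 38.5% of all genes. Of 8 tested genes of the NRF1 pathway 5 rose and 0 fell. After median-ratio scaling 1 rose (Ddi2) and 1 fell (Syvn1, a ubiquitin ligase of the endoplasmic reticulum). Nfe2l1 itself was at 20.4, 23.5 and 22.1 RPKM in Con and 22.8, 21.1 and 28.8 in STZ, and did not pass (0.13, adjusted p = 0.44; negative under the 3 other scalings). Ddi2, the protease that cuts NRF1, was at 19.6, 27.9 and 25.2 RPKM in Con and 38.9, 48.4 and 43.7 in STZ, a change of 0.83 (SE 0.16, adjusted p = 0.0029). It also rose in STZ+AOS against AOS (1.02, adjusted p = 0.00029), and no STZ mouse overlapped Con. Nploc4, a cofactor of the segregase VCP, rose by 0.55, and Ngly1, which removes the sugar chains of NRF1, by 0.43. In STZ+AOS against AOS the count was again 5 of 8.

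Of 9 tested genes of NRF2 and its targets 6 rose in STZ against Con and 0 fell. Nqo1, a quinone reductase, was at 0.94, 1.71 and 1.48 RPKM in Con and 13.3, 13.7 and 7.37 in STZ (2.36, SE 0.30, adjusted p = 0.00053). Nfe2l2, the gene of NRF2, rose by 0.77 and Srxn1, a sulfiredoxin, by 1.00. Of 12 ubiquitin and shuttle genes 4 rose and 0 fell, among them the shuttle Ubqln4 (0.59) and the polyubiquitin gene Ubb (0.58). Of 4 ubiquitin enzymes bound to the proteasome 3 rose, the deubiquitinase Uchl5 (0.44) and the ligases Ube3c (0.45) and Ube3a (0.22), and Usp14 did not pass (-0.01). After median-ratio scaling 0 of the 4 were called, and Ube3a, whose change was near the median of all genes, turned to -0.02. Ube3a was also called in only 1 of 6 fits with 1 mouse left out. Adrm1, the ubiquitin receptor that recruits Uchl5 and lies outside the name rule, rose by 0.58 (58.8, 63.3 and 64.4 RPKM in Con, 93.4, 108.4 and 80.7 in STZ, adjusted p = 0.0054). Sem1, the smallest lid subunit, did not pass (0.25, adjusted p = 0.18).

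The assembly factors of the core particle were not called in STZ against Con as deposited. Of Psmg1, Psmg2, Psmg3, Psmg4 and Pomp, 0 of 5 passed in STZ against Con (limma) and 0 had an unadjusted p under 0.05, with a median of 0.09. Pomp, which matures with the beta ring, was at 155.0, 153.0 and 154.5 RPKM in Con and 161.1, 134.1 and 141.6 in STZ (-0.09, adjusted p = 0.53), and it was the 1 factor called lower after median-ratio scaling (-0.36, adjusted p = 0.029). In A10-FMT it was at 190.8, 205.6 and 181.9 RPKM, above all STZ mice (0.40 against STZ, adjusted p = 0.083). The Con-FMT mice, at 189.7, 185.9 and 165.6 RPKM, also lay above all STZ mice. Against Con, 2 of the 5 factors rose in A10-FMT and 1 in Con-FMT, beside 15.9% and 17.5% of all genes called higher. After median-ratio scaling 0 of the 5 were called in either comparison. Of 5 tested activators and inhibitors 1 rose, Psmf1, a proteasome inhibitor (0.36, adjusted p = 0.020). The call was lost after median-ratio scaling (0.11, adjusted p = 0.35) and without STZ mouse 1 or Con mouse 1 (0.31 and 0.30). The activator genes Psme1 and Psme2 had changes of 0.22 and -0.09 and did not pass, and Psme2 was called lower after median-ratio scaling (-0.36, adjusted p = 0.034).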

How the data were processed

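Liver RNA of 18 mice in 6 groups was sequenced on an Illumina instrument. The authors deposited 1 table of RPKM values, whose unit was taken from the methods of the study. Its 19057 rows hold 1 value per gene and library, and 3 symbols occur more than once. The methods name SOAPaligner, whereas the submitters' processing notes list Bowtie 0.12.2 and mm10, so the aligner behind the values is not settled. RPKM divides by transcript length and mapped reads, so that values depend on what the largest genes take. Raw counts were not analysed here, so no counting interval is given. From 98 genes whose low values fell on steps of whole reads, the relative depth of the libraries ran from 0.950 to 1.06. No libraries were duplicates (at most 0.621% equal values, r of 0.951 to 0.996 within groups). Each library is labelled as 1 mouse, with 3 mice in a group. The p-values set a difference between groups against the spread of mice within groups, pooled over all groups of the model and moderated by limma.

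Genes that reached 1 RPKM in 3 or more libraries were fitted with limma 3.58.1 (R 4.3.3; trend, two-sided) on log2(RPKM + 1), so fold changes of low genes are understated. Con, STZ, A10-FMT and Con-FMT entered a model of 12 libraries, and comparisons with AOS a model of all 18. P-values were adjusted by Benjamini-Hochberg over all genes, and an adjusted p under 0.05 is called. The script was tested on simulated data. Alternatives were median-ratio scaling, median centring, quantile normalization, a fit without trend, 0.1 as pseudocount, the table unfiltered or held to 1 RPKM throughout, a replicate block, other sets of groups, and each mouse left out. Same-numbered mice deviated together with an r above 0.1 in every pair only for A10-FMT against Con-FMT (0.121 to 0.291). There the block left 0 genes called.

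Every member could be named; values per mouse were printed for the catalytic subunits, in STZ against Con the 4 called genes with the largest change each way, elsewhere the 3 called genes with the smallest adjusted p or the 1 gene with the smallest p, the highest and lowest genes, and the immunoproteasome genes and Nfe2l1. Genes of other lists were named if called in STZ against Con, at most 3 per list. Psma1, Psma4, Psmd4, Pomp, Hpd, Usp14, Syvn1, Sem1, Psme1, Psme2 and genes whose exons overlap were named after their values were seen. The members and lists were chosen with earlier results of these data known. Gene spans and overlaps came from GENCODE (GRCm38), promoters from RefSeq (GRCm38.p6).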

Additional observations from a re-analysis of the deposited data

Results flagged for a closer look

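Psmc3ip, which matched the name rule but encodes no proteasome subunit, moved in opposite directions after STZ with and without AOS. All STZ mice (3.59 to 4.46 RPKM) lay below all Con mice (5.08 to 7.08), while all STZ+AOS mice (4.12 to 5.37) lay above all AOS mice (2.67 to 3.57). The fitted changes were -0.41 and 0.42 on the log2 scale, and neither passed the test (limma adjusted p = 0.11 and 0.080). Their difference was 0.82 (SE 0.26, 95% interval 0.28 to 1.37), tested as an interaction, with an unadjusted p of 0.0055 and an adjusted p of 0.86 over all genes. It held its direction under all the alternatives run for it, with 0.70 to 0.90 when 1 mouse was left out. Exons of Psmc3ip overlap those of Mlx on the opposite strand.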

How the results depend on the processing

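The counts of called genes depended on scaling, on the groups fitted together and on single mice. In STZ against Con the count of 11 became 5 after median-ratio scaling, 6 after median centring, 4 after quantile normalization and 6 with those groups fitted alone (6 to 16 with 1 mouse left out). The 11 were all higher, whereas the 5 were 2 higher and 3 lower, beside 14% and 13.1% of all genes. In STZ+AOS against AOS the count of 17 became 7, 5 and 9 under the same scalings (15 to 17 with 1 mouse left out). In A10-FMT against Con the count of 10 became 0, 1 and 0, with 6 under a replicate block and 22 with the groups alone (0 to 5 with 1 mouse left out). In Con-FMT against Con the count of 9 became 0, 0 and 0, with 4 under the block and 15 with all 6 groups (1 to 14 with 1 mouse left out). Under median-ratio scaling, 12.2% of all genes were called higher in STZ+AOS against AOS, 6.27% in A10-FMT against Con and 4.9% in Con-FMT against Con. No share of all genes is given beside the counts of the other settings, so those counts are not read against a background. Apart from these 4 comparisons the count stayed at 0 under each alternative.

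The member median minus that of all genes, -0.009 in STZ against Con, was -0.065 after quantile normalization and 0.135 without a filter. In A10-FMT against STZ it was 0.123, and 0.048 after quantile normalization. In STZ+AOS against AOS it was 0.043, and 0.0066 after median-ratio scaling, 0.080 after quantile normalization, 0.012 with a pseudocount of 0.1 and 0.191 without a filter. In STZ against Con, changes reversed after median-ratio scaling, median centring and quantile normalization in Psmb5 (-0.129, -0.106, -0.173), Psmb6 (-0.136, -0.112, -0.129), Psmb7 (-0.065, -0.040, -0.046), Nfe2l1 (-0.133, -0.119, -0.142) and Ube3a (-0.017, -0.025, -0.020). Psmb10 reversed to 0.14 without STZ mouse 2 and to 0.04 without Con mouse 1, within a range of -0.27 to 0.14 with 1 mouse left out. The call of Psmb9 in A10-FMT against STZ was also lost after quantile normalization, without trend, without a filter, with the replicate block and with those groups alone (adjusted p of 0.052 to 0.21). The cause of these changes was not tested, beyond the fewer genes or samples of some fits.

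Apart from A10-FMT against Con-FMT, no comparison had an r above 0.1 in every same-numbered pair (r from -0.249 to 0.472). Every pair had a positive r in A10-FMT against Con (0.063 to 0.145) and in STZ+AOS against AOS (0.019 to 0.128). All 6 mice correlated best with their own number in A10-FMT against Con and in A10-FMT against Con-FMT, and 0 of 6 in STZ against Con. A pairing in A10-FMT against Con is thus not settled. Apart from A10-FMT against Con and Con-FMT against Con, whose counts fell as given above, the block changed no count by over 1.5 times. Depth is known only in relative terms, and 3 mice a group limit every comparison.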
